A study of Homo sapiens with 14 samples.

Results

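TMEM100, MYRIP, FAM171A1, MAP3K6, MORC1, FMO5 and MXRA7 were among the genes with the largest increases in dexamethasone-treated RS4;11 cells, though not all at both times. At 8 h MORC1 ranked 55 and MXRA7 306 of 11963 genes, and at 24 h MAP3K6 ranked 34 and MXRA7 36. The place of all 7 in leukemia is unclear. The 7 genes were selected on their measured increases in the same arrays, so their own differences between times are given as a description, without a test. They are read by 8 of the 19070 probe sets that carry exactly 1 gene, and they are 7 of the 11963 genes those probe sets measure. FMO5 has 2 probe sets and each of the others has 1.

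RS4;11 is an established human line of B-cell precursor acute lymphoblastic leukemia with a rearranged KMT2A gene, so all values come from a single line. Transcripts were quantified on 14 arrays, with 4 arrays of untreated cells, 5 of cells kept for 8 h with dexamethasone at 10 nM, and 5 of cells kept for 24 h with dexamethasone at 10 nM. Cells of all groups were first held for 48 h in medium whose serum had been stripped of steroids with charcoal and dextran, and dexamethasone was added in ethanol. There was no array of cells cultured for the same 8 h or 24 h in vehicle alone, and the effects of culture time and of dexamethasone cannot be told apart. Nothing in the labels or methods says that replicates were separate cultures, and p-values therefore measure the spread between arrays, which may be technical. According to the labels, 5 runs were made over 4 days. Day 1 held runs 1 and 2, each later run had a day of its own, and run 5 has no untreated array. Replicate numbers are those of the titles and differ from the runs in part. At 8 h and 24 h replicate 4 is in run 5 and replicate 5 in run 4, while untreated replicate 4 is in run 4. The methods name Agilent as the maker of the arrays, while the labels and the probe set names are those of Affymetrix.

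Of the B-cell precursor markers, 9 of 10 were measured and 8 were above the array median in every untreated array. The other, DNTT, was above it in some but not all of the untreated arrays. No measured marker of T cells, endothelium, fibroblasts, epithelium, liver, germ line or erythroid cells was above it in any untreated array. Fewer cells of a type and less RNA per cell cannot be told apart in such bulk samples. The median of an array lay between 6.03 and 6.11 on the log2 scale in all groups.

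The glucocorticoid receptor is a transcription factor that waits in the cytoplasm bound to chaperones. It enters the nucleus when it binds a steroid such as dexamethasone, and there it activates some genes and represses others, mostly from enhancers away from the start of the gene. Genes that it activates directly can respond within hours, while others follow through the products of the first. In B-cell precursor leukemia this response ends in growth arrest and cell death and is the basis of steroid therapy.

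The 7 genes are otherwise known from unrelated tissues. TMEM100 encodes a small membrane protein of endothelium that acts downstream of the BMP receptor ALK1, and FAM171A1 encodes a membrane protein of little-known function. MYRIP links RAB27A on secretory granules and melanosomes to myosin motors. MAP3K6, also called ASK2, is a stress-activated kinase that works in a complex with ASK1. FMO5 is a flavin-containing monooxygenase of liver and gut, MORC1 is an ATPase of the male germ line that is needed for meiosis and for silencing of transposons, and MXRA7 is named for its expression together with genes of matrix remodeling.

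Promoter sequences are shown for 3 genes that follow different time courses, as a description of the letters near the start site. RefSeq promoter windows of GRCh38.p14 were at hand for 6 of the 7 genes, 10 windows in all, since MYRIP and MXRA7 have several starts. TMEM100 had no window. The bases upstream of the start are printed 5′ to 3′ on the strand of the gene. In the FMO5 sequence (chr1:147225340-147225589, minus strand) capitals mark the letters TATAAA read on the opposite strand, at −30 to −25 from the start. In the MXRA7 sequence (chr17:76709559-76709808, minus strand) capitals mark a single receptor hexamer, AGAACA read on the opposite strand, at −122 to −117. This is the only MXRA7 window with a match, and the others, not printed, held no motif that was searched. The MAP3K6 sequence (chr1:27366962-27367211, minus strand) held no motif that was searched.
FMO5: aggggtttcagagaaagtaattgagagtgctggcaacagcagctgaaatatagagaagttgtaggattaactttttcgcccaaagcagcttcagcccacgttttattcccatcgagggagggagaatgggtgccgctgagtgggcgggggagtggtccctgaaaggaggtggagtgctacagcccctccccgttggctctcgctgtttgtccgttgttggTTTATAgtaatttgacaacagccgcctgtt
MXRA7: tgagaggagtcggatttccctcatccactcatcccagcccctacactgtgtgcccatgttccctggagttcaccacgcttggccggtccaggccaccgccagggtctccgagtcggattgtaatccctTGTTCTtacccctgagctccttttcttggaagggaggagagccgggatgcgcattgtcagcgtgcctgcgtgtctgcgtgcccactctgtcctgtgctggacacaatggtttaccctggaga
MAP3K6: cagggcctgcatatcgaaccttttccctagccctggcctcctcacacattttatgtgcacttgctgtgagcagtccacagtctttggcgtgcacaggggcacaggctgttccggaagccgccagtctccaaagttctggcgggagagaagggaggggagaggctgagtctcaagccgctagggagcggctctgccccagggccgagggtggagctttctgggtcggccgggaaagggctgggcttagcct

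The motifs were searched on both strands of the windows, which run from 250 bases before to 50 bases after a start. The full receptor element, searched as the exact letters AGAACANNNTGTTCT, was in 1 of the 35116 windows of the genome (0.00285%). It was in none of the 10 windows of these genes, where so rare a sequence could hardly be met. The single hexamer AGAACA was in 14.8% of all windows and in 1 of the 10, the MXRA7 window printed above. The hexamer lies within the full element, so the searches overlap. The AP-1 site TGANTCA was in 7.71% of all windows, the PU.1 core GAGGAAGT in 2.59% and TATAAA in 11.5%. Of these 3 motifs only TATAAA matched, in FMO5. A match is a description of letters, and its absence from these windows says nothing of inexact sites or of enhancers elsewhere.

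The promoters differed widely in base composition. The 3 windows of MYRIP held 84%, 56.3% and 42.3% of G and C, the first above 99.5% of all windows and the last above 15.5%. FAM171A1 had 79%, above 96.3%. MXRA7 had windows of 79.3%, 59.7% and 58%. FMO5 had 52%, below the median window of 58.7%, while MORC1 was at that median and MAP3K6 was at 62.3%.

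Against untreated cells, 6 of the 7 genes had every 8 h array above every untreated array, and MXRA7 was the exception. Of all genes 7.86% showed this. At 24 h all 7 did, beside 17.2% of all genes, and between 8 h and 24 h 6 of 7 did, beside 11.5%, with MAP3K6 as the exception. These counts only restate how the genes were selected. Before treatment the genes were mostly dim. MXRA7 was above the array median in 4 of 4 untreated arrays and MYRIP in 2 of 4, and the other 5 genes were below it in every one. The probe sets have different affinities, so levels are compared only between times within a probe set, and all values are on the log2 scale of the deposited table.

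**Figure D1:**
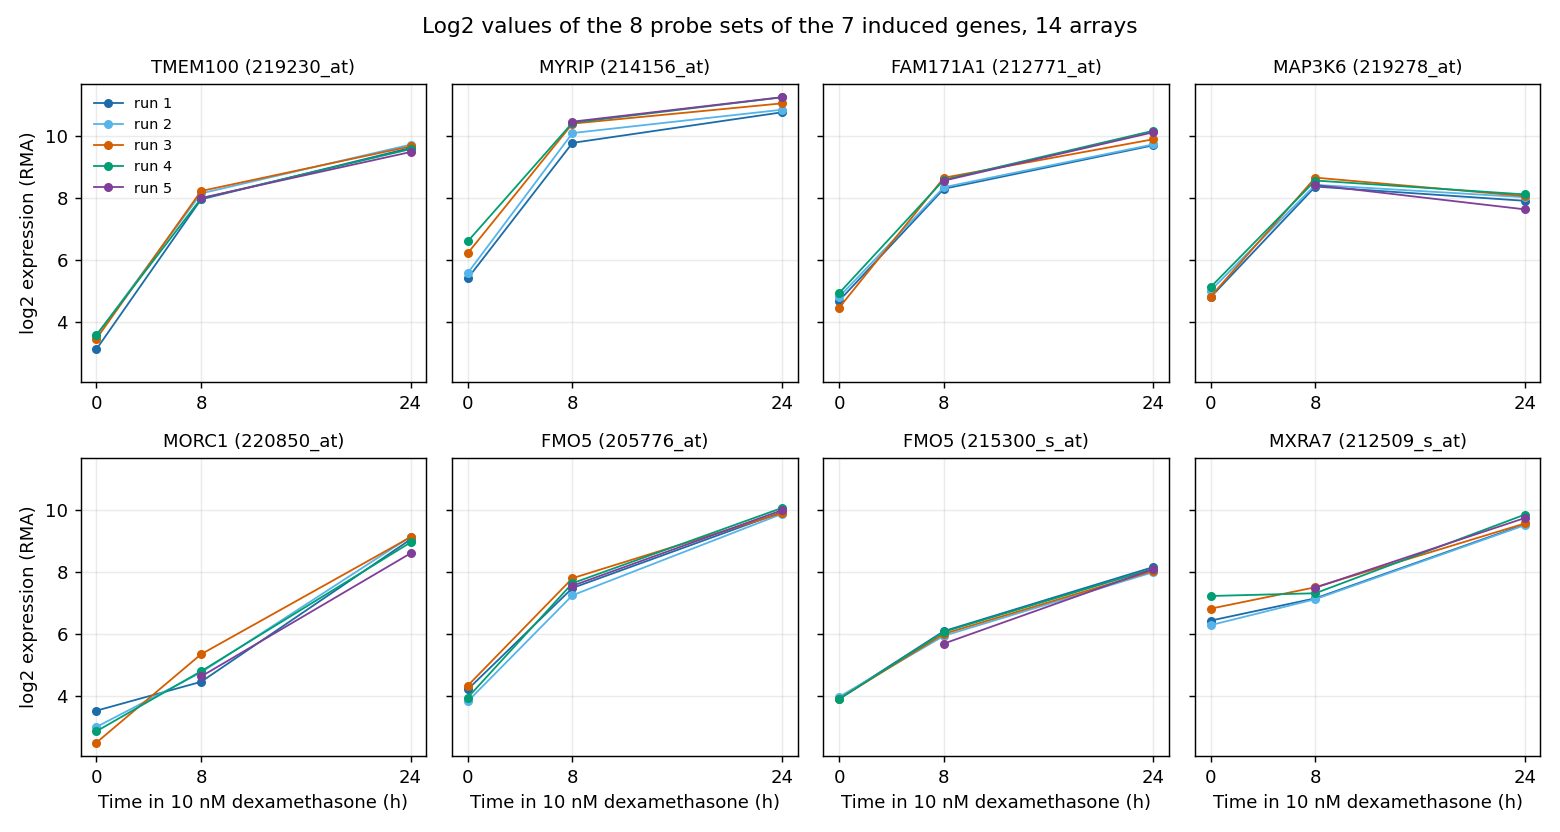
Log2 expression (y axis) of each of the 8 probe sets against hours in 10 nM dexamethasone (x axis, 0 being untreated). Each point is 1 array and each line joins the arrays of 1 run; run 5 has no untreated array. On this log2 scale TMEM100, MYRIP and FAM171A1 gain most of their increase by 8 h. MAP3K6 is lower at 24 h than at 8 h, and MORC1 and MXRA7 gain most after 8 h.

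TMEM100, the endothelial membrane protein, had the largest difference of all genes at 24 h and the second largest at 8 h. Its untreated arrays read 3.11, 3.55, 3.44 and 3.57 in runs 1 to 4, the 8 h arrays read 7.95, 8.14, 8.22, 7.97 and 7.99 in runs 1 to 5, and the 24 h arrays read 9.61, 9.71, 9.66, 9.57 and 9.47. The 3 times lie far apart, with no overlap between any pair of them. The mean was 3.42 ± 0.21 (SD, n = 4) in untreated cells, 8.05 ± 0.12 (SD, n = 5) at 8 h and 9.60 ± 0.09 (SD, n = 5) at 24 h, which is 24.9-fold at 8 h and 72.9-fold at 24 h. Within a run the 8 h difference ranged from 4.41 to 4.84, and the further step to 24 h ranged from 1.44 to 1.66. The endothelium markers beside it averaged between 4.12 and 4.17 in untreated arrays and between 4.30 and 4.49 at 24 h. KDR, the VEGF receptor, had the largest difference among them, from a mean of 4.72 in untreated cells to 5.38 at 8 h and 6.51 at 24 h, where it passed the array median in some but not all arrays, and their part in the TMEM100 values was not tested. From untreated cells to 24 h the means of the other 5 markers went from 4.24 to 4.26 for PECAM1, 3.63 to 3.66 for CDH5, 3.69 to 3.69 for TIE1, 5.10 to 4.90 for VWF and 3.47 to 3.38 for TEK.

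FAM171A1, the membrane protein of little-known function, followed a similar course. In runs 1 to 4 its untreated arrays read 4.68, 4.80, 4.45 and 4.92. The 8 h arrays of runs 1 to 5 read 8.29, 8.34, 8.64, 8.58 and 8.55, and the 24 h arrays read 9.69, 9.72, 9.89, 10.16 and 10.11. The times do not overlap, and at both 8 h and 24 h the arrays of day 1 were the lowest pair. The means were 4.71 ± 0.20 (SD, n = 4), 8.48 ± 0.16 (SD, n = 5) and 9.92 ± 0.22 (SD, n = 5). FAM171A1 was thus 13.6-fold higher at 8 h and 36.8-fold higher at 24 h, rank 5 among all genes at both times.

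MYRIP, the link between RAB27A granules and myosin, had a wide spread between runs. The untreated arrays read 5.40, 5.57, 6.21 and 6.59 in runs 1 to 4. At 8 h the arrays read 9.77, 10.09, 10.39, 10.42 and 10.46 in runs 1 to 5, and at 24 h they read 10.76, 10.84, 11.05, 11.24 and 11.24. Day 1 gave the lowest pair at all 3 times, and no 2 times overlap. The mean went from 5.94 ± 0.56 (SD, n = 4) in untreated cells to 10.23 ± 0.29 (SD, n = 5) and then 11.03 ± 0.22 (SD, n = 5), or 19.5-fold at 8 h and 33.9-fold at 24 h. The step after 8 h was small, 0.65 to 0.99 within a run, and ranked 156 among all genes.

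MAP3K6, the stress kinase that pairs with ASK1, was the only one of the 7 with a lower level at 24 h than at 8 h. Its untreated arrays read 4.79, 5.0, 4.81 and 5.11 in runs 1 to 4. The 8 h arrays read 8.36, 8.42, 8.65, 8.55 and 8.41 in runs 1 to 5, and the 24 h arrays read 7.90, 8.02, 8.05, 8.11 and 7.62. Every 24 h array was below every 8 h array and above every untreated one. The means were 4.93 ± 0.16 (SD, n = 4), 8.48 ± 0.12 (SD, n = 5) and 7.94 ± 0.19 (SD, n = 5), or 11.7-fold at 8 h and 8.07-fold at 24 h. From 8 h to 24 h the level was lower in 5 of 5 runs, with differences between −0.79 and −0.40.

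FMO5, the monooxygenase of liver and gut, was read by 2 probe sets that moved the same way with different sizes. On the first, the _at probe set of the plot by time, the untreated arrays read 4.20, 3.82, 4.32 and 3.94 in runs 1 to 4, the 8 h arrays 7.48, 7.24, 7.79, 7.63 and 7.55 in runs 1 to 5, and the 24 h arrays 9.93, 9.87, 9.89, 10.06 and 9.99. On the second, the _s_at probe set, the untreated arrays read 3.91, 3.96, 3.90 and 3.89, the 8 h arrays 6.08, 5.93, 6.0, 6.06 and 5.68, and the 24 h arrays 8.15, 7.99, 8.03, 8.10 and 8.09. Neither had overlapping times. The 24 h difference was 5.88 on the first (58.8-fold) and 4.15 on the second (17.8-fold), and at 8 h the differences were 3.47 and 2.03. The late step was nearly the same on both, 2.41 against 2.12. Its mean over both probe sets was the third largest late step of all genes. The 5 liver markers averaged between 4.20 and 4.33 in untreated arrays and between 4.18 and 4.27 at 24 h.

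MORC1, the germ line ATPase, had the largest late step of all genes. Its untreated arrays read 3.51, 2.99, 2.48 and 2.85 in runs 1 to 4, the 8 h arrays 4.45, 4.75, 5.34, 4.79 and 4.62 in runs 1 to 5, and the 24 h arrays 9.04, 9.14, 9.12, 8.95 and 8.59. The untreated and 8 h arrays lie close but do not overlap, and the 24 h arrays stand well above both. The mean was 2.96 ± 0.43 (SD, n = 4) in untreated cells, 4.79 ± 0.33 (SD, n = 5) at 8 h and 8.97 ± 0.22 (SD, n = 5) at 24 h. MORC1 was 3.55-fold higher at 8 h, and a further 18.1-fold higher at 24 h than at 8 h. The 8 h difference varied between runs from 0.93 to 2.86, with the highest untreated array and the lowest 8 h array both in run 1. The 3 germ line markers measured averaged between 3.10 and 3.30 in untreated arrays and between 3.15 and 3.30 at 24 h.

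MXRA7, named for matrix remodeling, was the only one of the genes with overlapping values at 8 h. In runs 1 to 4 the untreated arrays read 6.42, 6.28, 6.81 and 7.22. The 8 h arrays read 7.14, 7.11, 7.50, 7.31 and 7.49 in runs 1 to 5, and the 24 h arrays read 9.53, 9.50, 9.56, 9.84 and 9.73. The untreated array of run 4 was above both 8 h arrays of day 1, although each of the 4 runs had its 8 h array above its own untreated array. The means were 6.68 ± 0.42 (SD, n = 4), 7.31 ± 0.18 (SD, n = 5) and 9.63 ± 0.15 (SD, n = 5). MXRA7 was 1.55-fold higher at 8 h and 7.74-fold higher at 24 h, with the second largest late step of all genes.

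The share of the 24 h difference that was present at 8 h was computed within each of the 4 runs that had an untreated array. On the log2 scale it averaged 84.0% ± 2.42 (SD, n = 4) for MYRIP, 74.8% ± 1.44 (SD, n = 4) for TMEM100 and 72.7% ± 3.12 (SD, n = 4) for FAM171A1. MAP3K6 stood above its 24 h level, at 115% ± 2.20 (SD, n = 4). FMO5 was intermediate, with 59.1% ± 2.67 (SD, n = 4) on the first probe set and 50.6% ± 1.20 (SD, n = 4) on the second. MORC1 averaged 30.1% ± 10.8 (SD, n = 4) and MXRA7 19.4% ± 10.8 (SD, n = 4), and these late genes had the widest range between runs. Their ranges, 16.9% to 43.0% and 3.36% to 26.0%, overlap each other and lie below those of the other 5 genes. TMEM100 and FAM171A1 also overlap, at 73.4% to 76.8% and 69.8% to 77.1%. MYRIP lay above both, at 81.6% to 86.5%. On the linear scale, which weights the last doublings most, the mean share was 32.9% for TMEM100, 36.1% for FAM171A1 and 56.2% for MYRIP. It was 17.7% and 19.6% for the first and second probe sets of FMO5, 3.99% for MORC1 and 7.47% for MXRA7. All of these were lower than on the log2 scale, while MAP3K6 was higher, at 144%. On the linear scale TMEM100 and FAM171A1 thus made most of their increase after 8 h.

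**Figure D2:**
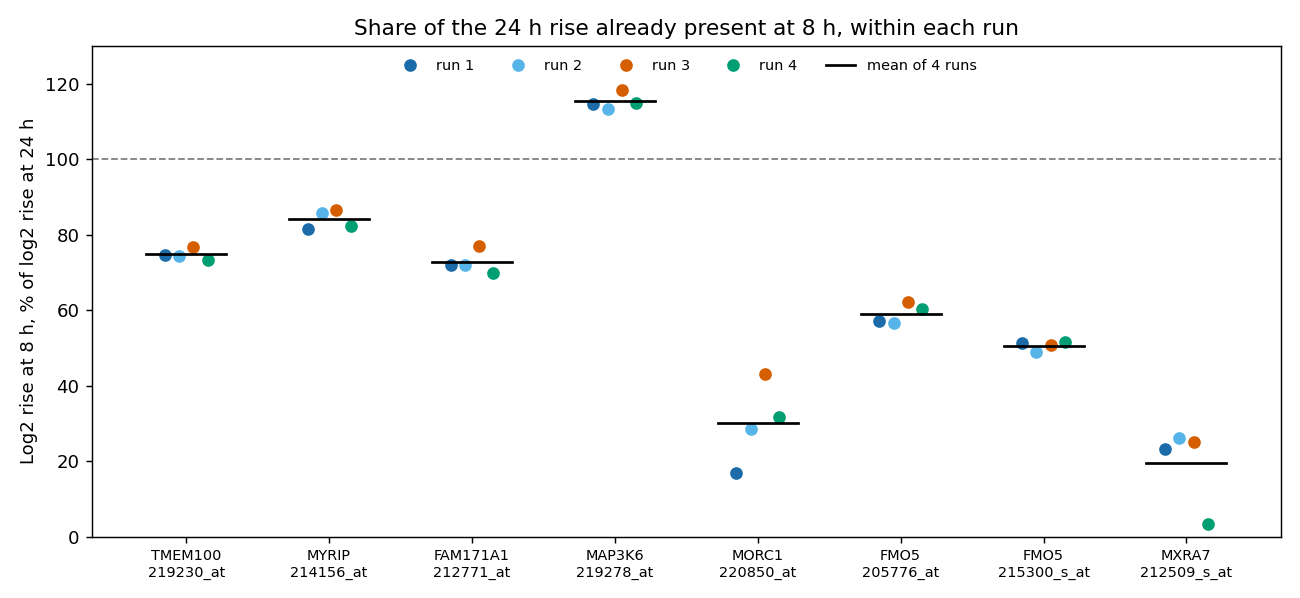
Log2 difference at 8 h as a percentage of the log2 difference at 24 h (y axis) for each probe set (x axis). Points are the 4 runs with an untreated array, bars are their means, and the dashed line marks equal levels at 8 h and 24 h. MAP3K6 lies above the line in all 4 runs, and MORC1 and MXRA7 lie lowest and spread most.

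The spread between arrays of the same time also differed among the genes. The pooled SD within times was 0.37 for MYRIP, 0.33 for MORC1 and 0.26 for MXRA7, larger than in 98.8%, 98.1% and 95.2% of genes. FAM171A1 had 0.19, MAP3K6 0.16 and TMEM100 0.14, beside a median of 0.13 over all genes. FMO5, averaged over its probe sets, had 0.11. For MYRIP and MXRA7 both arrays of day 1 were below all other arrays at each of the 3 times, a pattern that 969 of the 11963 genes (8.10%) shared. The mean of day 1 was below that of the other days by 0.92 in untreated cells, 0.49 at 8 h and 0.38 at 24 h for MYRIP. The same gaps were 0.66, 0.30 and 0.20 for MXRA7. MORC1 had no such order, as its run 1 array was the highest of the untreated and the lowest of the 8 h arrays.

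**Figure D3:**
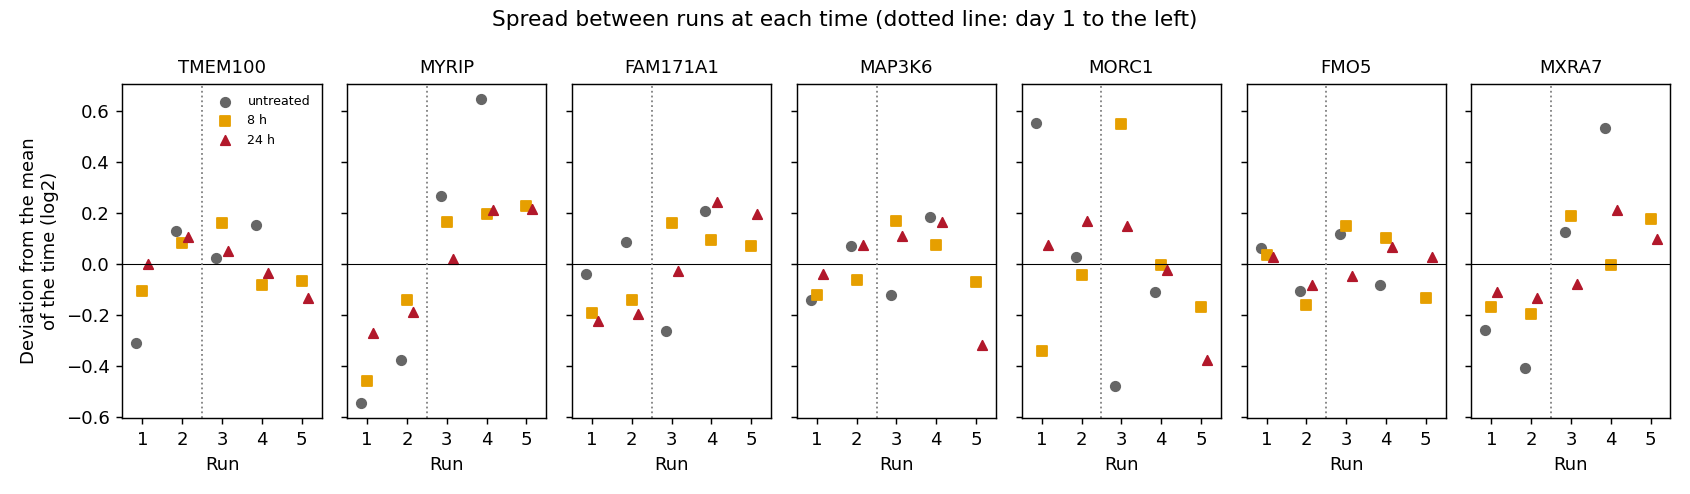
Deviation of each array from the mean of its time (y axis, log2) for the 7 genes, by run (x axis), with symbols for untreated, 8 h and 24 h. The dotted line separates day 1 (runs 1 and 2) from the later days. MYRIP and MXRA7 have all day 1 arrays below their means, while the deviations of MORC1 in run 1 point both ways.

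Among themselves the time courses were closest between MYRIP and FAM171A1, whose values relative to untreated cells differed by a root mean square of 0.42 on the log2 scale over the 14 arrays. TMEM100 and MXRA7 were farthest apart, at 3.09. By the same measure the nearest other gene to TMEM100 was P2RY14, a receptor for UDP-glucose, at 0.36, followed by IL1R2, the decoy receptor of interleukin 1, at 0.53. IL1R2 was also near MYRIP at 0.56 and FAM171A1 at 0.40. KLF2, a transcription factor of quiescent lymphocytes, came next for TMEM100 at 1.01 and the nearest to MYRIP at 0.47 and to FAM171A1 at 0.28. ZBTB16, a zinc finger repressor, followed at 0.57 for MYRIP and 0.34 for FAM171A1.

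MAP3K6 had SESN1 as its nearest gene at 0.48, followed by PTPN3 at 0.62 and RIN2 at 0.64. These genes are near in size and did not share its lower level at 24 h. Their differences from untreated cells at 8 h and 24 h were 2.87 and 3.29 for SESN1, and 3.23 and 3.92 for PTPN3. Those of RIN2 were 3.09 and 3.87, where MAP3K6 had 3.55 and 3.01. SESN1 encodes a stress-induced inhibitor of mTORC1 signaling and PTPN3 a tyrosine phosphatase. FMO5 was nearest to OR7A5, an olfactory receptor gene, at 0.39, followed by ZBTB16 and the centrosomal gene TACC2, both at 0.50. The same genes were nearest to MORC1, but at 1.07 for OR7A5, 1.25 for TACC2 and 1.27 for ZBTB16. The distance to OR7A5 was the largest distance of any of the 7 genes to its nearest gene outside the 7. Among the 7, FMO5 was nearer to MORC1, at 0.86. MXRA7 was near MTUS1 at 0.28, EHD3 at 0.36 and H2AC6 at 0.38. MTUS1 encodes a microtubule-associated protein, EHD3 an endocytic ATPase and H2AC6 a histone. All these distances share the same arrays and are given as a description.

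The families and pathways around the 7 genes were taken from lists of 160 relatives, of which 135 were measured. At 8 h 13 of the 135 rose and 9 fell, which is 9.63% and 6.67%, where 8.69% of all genes rose and 11% fell. At 24 h 30 rose and 16 fell, or 22.2% and 11.9%, where 19.5% of all genes rose and 20.9% fell. From 8 h to 24 h 23 rose and 6 fell, or 17.0% and 4.44%, where 14.6% of all genes rose and 13.7% fell. The median difference of the relatives was −0.02 at 8 h and 0.00 at 24 h, beside −0.02 for all genes at both times. With dim genes counted, the shares that rose thus lay near those of all genes, and the shares that fell lay below them. Only 53 of the 135 relatives passed a filter on dim probe sets. Of these 12 rose and 9 fell at 8 h, where 1041 and 1277 of 6557 genes did. At 24 h 27 rose and 8 fell, where 2083 and 2172 did. From 8 h to 24 h 25 rose and 3 fell, where 1729 and 1621 did. After that filter the shares that rose were above those of all genes. The filter used the mean over all 14 arrays, so a gene dim in untreated cells could pass through its treated arrays. It thus favors genes that rose, and no conclusion about the relatives is drawn from these shares. With the run as a block 20 relatives rose and 13 fell at 8 h, where 1428 and 1815 of all genes did. In that fit 31 relatives rose and 19 fell at 24 h, where 2654 and 2871 of all genes did. From 8 h to 24 h 31 relatives rose and 9 fell, where 2277 and 2082 of all genes did. Both comparisons with untreated cells share the same 4 control arrays. Adjusted p-values come from the limma model over all 11963 genes, and errors of differences are standard errors of that model with n = 4 untreated arrays and n = 5 at each later time.

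**Figure D4:**
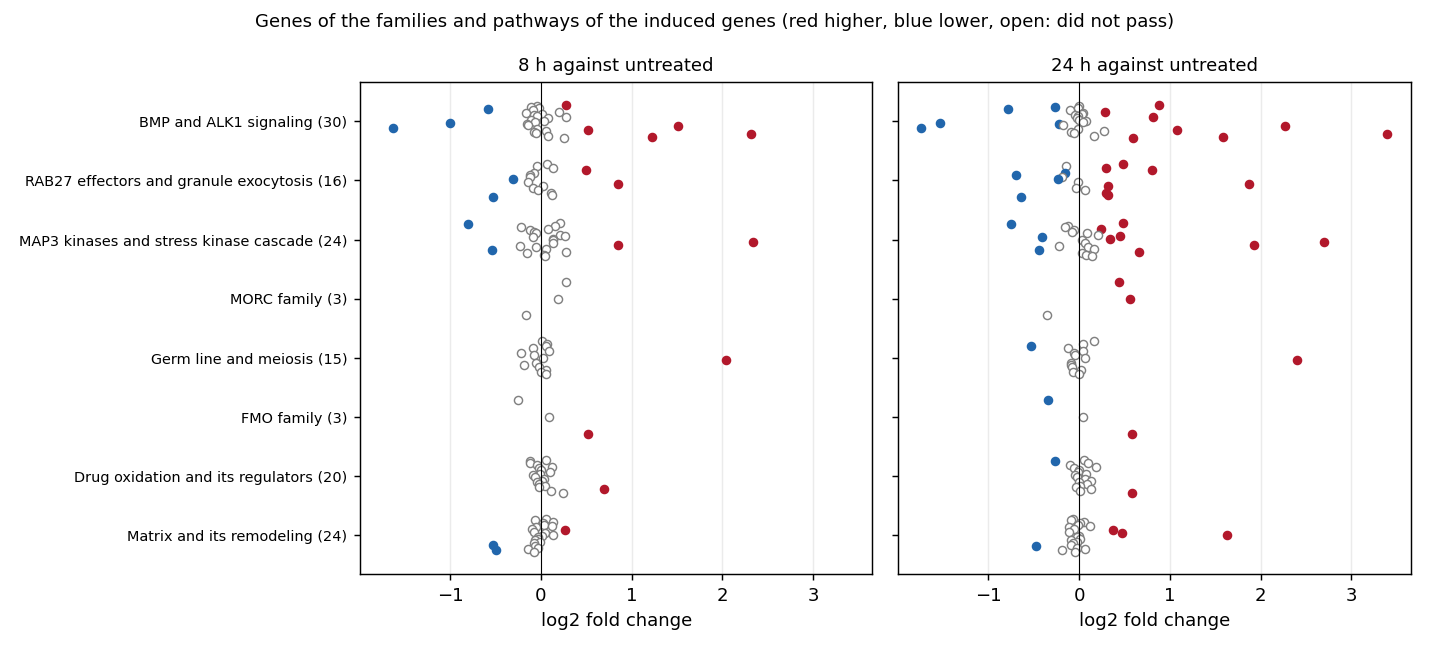
Log2 fold change (x axis) of each measured relative of the 7 genes at 8 h and 24 h against untreated cells, by list (y axis, number measured in brackets). Filled red points rose and filled blue points fell at an adjusted p below 0.05, and open points did not pass. SMAD7 reaches 3.40 and MAP3K5 2.70 at 24 h, while most members lie near 0.

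Of the BMP and ALK1 signaling genes, within which TMEM100 acts, 5 of 30 rose and 3 fell at 8 h, and 8 rose and 5 fell at 24 h. The list median was −0.04 at 8 h and 0.00 at 24 h. SMAD7, an inhibitory SMAD that blocks BMP and TGF-beta receptors, rose most, by 2.32 ± 0.13 at 8 h (adjusted p = 2.55e-09) and 3.40 ± 0.13 at 24 h (adjusted p = 5.62e-12). ID2, a target of BMP signaling that inhibits basic helix-loop-helix factors, rose by 2.27 ± 0.12 at 24 h (adjusted p = 3.96e-10). ID3, a target of the same kind, fell by 1.74 ± 0.10 (adjusted p = 7.28e-10). GREM1, a secreted BMP antagonist, fell by 1.54 ± 0.08 (adjusted p = 3.37e-10). At 8 h ID2 already differed by 1.51 ± 0.12, ID3 by −1.64 ± 0.10 and GREM1 by −1.01 ± 0.08, and all of these passed. The members that moved thus include inhibitors and targets on both sides. TMEM100 was selected for its increase, so its larger difference of 6.19 at 24 h does not set it apart from them.

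The 16 measured genes of RAB27 effectors and granule exocytosis are the surroundings of MYRIP. At 8 h 2 rose and 2 fell, and at 24 h 7 rose and 4 fell, with a list median of 0.03. RAB27A, the GTPase that MYRIP binds, did not pass at 8 h (−0.12 ± 0.07, adjusted p = 0.252) and fell by 0.70 ± 0.07 at 24 h (adjusted p = 2.24e-07). RPH3AL, another effector that binds RAB27A, rose by 1.87 ± 0.26 at 24 h (adjusted p = 1.91e-05). Its 8 h difference of 0.85 ± 0.26 had an adjusted p of 0.0288, which became 0.101 without untreated replicate 1, 0.0826 without untreated replicate 2, and 0.0752, 0.0754 and 0.0728 without 8 h replicates 3, 4 and 5. MYO5C, a class V myosin, rose by 0.80 ± 0.13 at 24 h (adjusted p = 1.02e-04), and VAMP7, a vesicle fusion protein, by 0.31 ± 0.06 (adjusted p = 2.04e-04). MYO5C also passed at 8 h (0.50 ± 0.13, adjusted p = 0.0131), but not without untreated replicate 1 (adjusted p = 0.0549) or untreated replicate 2 (adjusted p = 0.0513).

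Among the 24 measured MAP3 kinases and members of the stress kinase cascade, 2 rose and 2 fell at 8 h, and 7 rose and 3 fell at 24 h, with a list median of 0.08 at 24 h. MAP3K5, which is ASK1 and the partner of MAP3K6, rose by 2.33 ± 0.08 at 8 h (adjusted p = 3.98e-12) and 2.70 ± 0.08 at 24 h (adjusted p = 2.62e-13). Its untreated mean was 8.30 and its 24 h mean 11.01, and from 8 h to 24 h it rose by a further 0.37 ± 0.07 (adjusted p = 0.00120) where MAP3K6 was lower by 0.54. MAP3K8, also known as TPL2, rose by 0.85 ± 0.19 at 8 h and 1.93 ± 0.19 at 24 h (adjusted p = 0.00422 and 3.78e-07). MAP2K4, a kinase below ASK1 on the way to JNK, did not pass at 8 h (0.21 ± 0.09) and rose by 0.49 ± 0.09 at 24 h (adjusted p = 2.20e-04). MAPK12, one of the p38 kinases, fell by 0.54 ± 0.07 at 8 h and by 0.44 ± 0.07 at 24 h (adjusted p = 2.28e-05 and 5.15e-05).

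None of the 3 other members of the MORC family passed at 8 h. At 24 h MORC3, which acts at nuclear bodies, rose by 0.56 ± 0.08 (adjusted p = 2.53e-05) and MORC2, a partner of the HUSH silencing complex, by 0.44 ± 0.12 (adjusted p = 0.00767). Of the 15 measured germ line and meiosis genes 1 rose at 8 h, and 1 rose and 1 fell at 24 h, with a list median of −0.05. The gene that rose was STAG3, the cohesin subunit of meiotic chromosomes, by 2.03 ± 0.11 at 8 h (adjusted p = 2.20e-09) and 2.40 ± 0.11 at 24 h (adjusted p = 6.81e-11). STAG3 made most of its increase before 8 h, where MORC1 made most of it afterwards. DMC1, the meiotic recombinase, fell by 0.53 ± 0.10 at 24 h (adjusted p = 2.68e-04), but on the brightest probe set the difference was −0.18 (adjusted p = 0.0839). The other 13 germ line genes did not pass at 24 h.

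The FMO family held 3 measured relatives of FMO5. FMO4 rose by 0.52 ± 0.13 at 8 h (adjusted p = 0.00941) and 0.58 ± 0.13 at 24 h (adjusted p = 0.00190). FMO1 fell by 0.35 ± 0.10 at 24 h (adjusted p = 0.0114), a call that was lost without untreated replicate 2 (adjusted p = 0.0511) and within day 1 (adjusted p = 0.104). FMO5, which was selected for its increase, had a difference of 5.02 at 24 h as the mean of its probe sets. Of the 20 measured genes of drug oxidation and its regulators 1 rose at 8 h, and 1 rose and 1 fell at 24 h, with a list median of 0.01. POR, the reductase that feeds electrons to cytochrome P450 enzymes, rose by 0.58 ± 0.10 at 24 h (adjusted p = 2.11e-04). AOX1, an aldehyde oxidase, passed with −0.26 ± 0.08 at 24 h (adjusted p = 0.0189), but not without untreated replicate 3 (adjusted p = 0.0755) or on its brightest probe set (adjusted p = 0.860). NQO1, a quinone reductase, rose by 0.69 ± 0.17 at 8 h (adjusted p = 0.00660) and did not pass at 24 h (0.13 ± 0.17). Within days 2 to 4 its 8 h difference was 0.45 (adjusted p = 0.0845). ARNT, the partner of the aryl hydrocarbon receptor, passed only between 8 h and 24 h (0.22 ± 0.06, adjusted p = 0.00825), and not within day 1 (adjusted p = 0.0524).

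Of the 24 matrix genes set beside MXRA7, 1 rose and 2 fell at 8 h, and 3 rose and 1 fell at 24 h, with a list median of −0.02. LGALS1, a secreted galectin, did not pass at 8 h (0.13 ± 0.12, adjusted p = 0.562) and rose by 1.63 ± 0.12 at 24 h (adjusted p = 1.69e-08), a late course like that of MXRA7. FN1, which encodes fibronectin, rose by 0.38 ± 0.07 at 24 h (adjusted p = 2.28e-04), from a dim untreated mean of 4.26. LAMC1, a laminin chain, rose by 0.47 ± 0.09 (adjusted p = 5.62e-04), and SPARC, a matrix glycoprotein, fell by 0.47 ± 0.10 (adjusted p = 0.00128). MXRA8, named by the same criterion as MXRA7, fell by 0.52 ± 0.11 at 8 h (adjusted p = 0.00354) and did not pass at 24 h (−0.09 ± 0.11). TIMP2, an inhibitor of matrix proteases, fell by 0.50 ± 0.08 at 8 h (adjusted p = 4.63e-04). The 2 relatives of FAM171A1 that were listed were not measured by a probe set with a single gene.

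The genes next to the 7 on their chromosomes were examined as a further measure that did not enter the selection. The 3 nearest measured genes on each side, by the RefSeq order of GRCh38.p14, gave 42 neighbours. At 8 h 7 rose and 1 fell, or 16.7% and 2.38%, beside 8.69% and 11% of all genes. At 24 h 13 rose and 2 fell, or 31.0% and 4.76%, beside 19.5% and 20.9%. From 8 h to 24 h 8 rose and 2 fell, or 19.0% and 4.76%, beside 14.6% and 13.7%. Their median difference was 0.03 at 8 h and 0.04 at 24 h, and the largest at 24 h was 1.61. At 24 h 27 of the 42 neighbours did not pass. Within days 2 to 4 the count at 8 h was 13, with 10 higher and 3 lower. That count rests on fewer arrays, and the shares of all genes given above come from all arrays and cannot be set beside it.

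**Figure D5:**
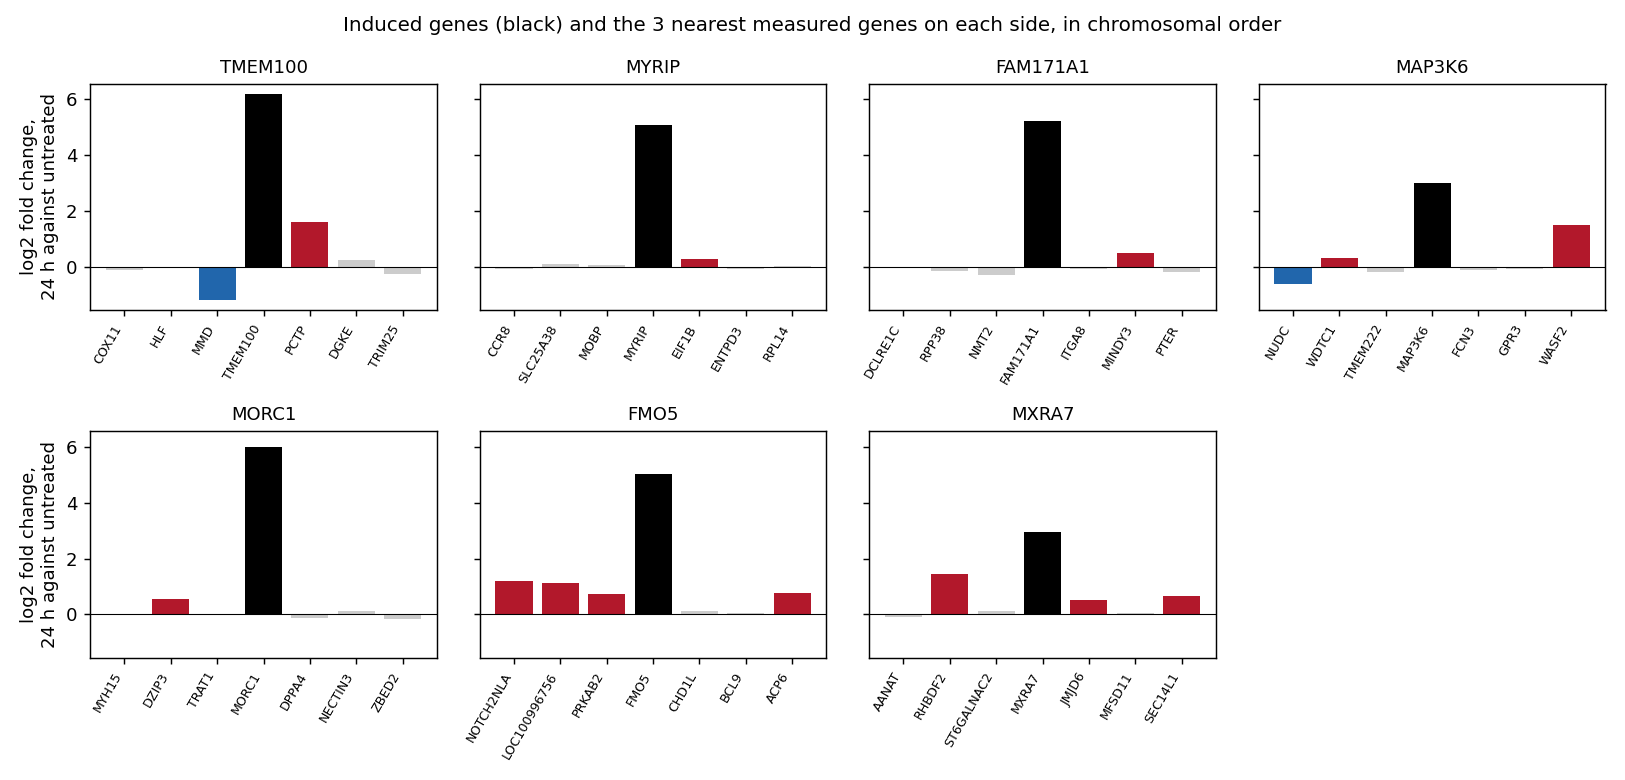
Log2 fold change at 24 h against untreated cells (y axis) of each of the 7 genes (black) and its 3 nearest measured genes on each side, in chromosomal order (x axis, not to scale). Red bars rose and blue bars fell at an adjusted p below 0.05, and grey bars did not pass. No neighbour exceeds 1.61. The black bars reach from 2.95 to 6.19, which follows from the selection of the 7 genes for their increase.

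PCTP, a phosphatidylcholine transfer protein and the gene next to TMEM100 on one side, rose by 1.21 ± 0.10 at 8 h (adjusted p = 1.68e-07) and 1.61 ± 0.10 at 24 h (adjusted p = 1.14e-09). MMD, the gene next to it on the other side, did not pass at 8 h (−0.22 ± 0.08) and fell by 1.18 ± 0.08 at 24 h (adjusted p = 6.32e-09). The neighbours on both sides of TMEM100 therefore moved in opposite directions. WASF2, an activator of actin branching near MAP3K6, rose by 1.05 ± 0.06 at 8 h (adjusted p = 7.53e-09) and 1.48 ± 0.06 at 24 h (adjusted p = 2.75e-11), and from 8 h to 24 h it rose by 0.43 ± 0.06 where MAP3K6 was lower. On the other side of MAP3K6, WDTC1 rose by 0.33 and NUDC, a partner of dynein, fell by 0.60 at 24 h. RHBDF2, an inactive rhomboid protein near MXRA7, rose by 1.01 ± 0.12 at 8 h (adjusted p = 1.19e-05) and 1.45 ± 0.12 at 24 h (adjusted p = 4.07e-08). JMJD6 and SEC14L1, on the other side of MXRA7, rose by 0.52 and 0.65 at 24 h.

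FMO5 had the most neighbours that passed, 4 of 6 at 24 h. PRKAB2, a subunit of AMP-activated kinase, rose by 0.73 ± 0.14 and ACP6, a phosphatase, by 0.77 ± 0.12. NOTCH2NLA rose by 1.21 ± 0.14 and LOC100996756 by 1.12 ± 0.14, but NOTCH2NLA belongs to a family of near-identical copies, so its reading is uncertain. PRKAB2 also passed at 8 h (0.52 ± 0.14, adjusted p = 0.0155), but not without untreated replicate 4 (adjusted p = 0.0591). DZIP3 near MORC1 rose by 0.54 ± 0.10 at 8 h and 0.56 ± 0.10 at 24 h, and it did not pass from 8 h to 24 h (0.02 ± 0.09), where MORC1 had its largest step. MINDY3 near FAM171A1 rose by 0.34 at 8 h and 0.50 at 24 h, with an 8 h difference of 0.07 within day 1 (adjusted p = 0.554). NMT2, the gene on the other side of FAM171A1, fell by 0.47 at 8 h (adjusted p = 0.0262), a call that was lost without 8 h replicates 1 and 2 (adjusted p = 0.0627 and 0.0517) and without untreated replicates 1 and 3 (adjusted p = 0.0559 and 0.0746). EIF1B, next to MYRIP, rose by 0.27 at 24 h (adjusted p = 0.0132), but not without untreated replicate 4 (adjusted p = 0.0555).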

How the data were processed

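The authors hybridized 5 arrays per time, applied RMA from the affy package (version not given in the sources used here) for background correction, normalization and summary, left out 1 untreated array after quality control, and deposited log2 values of 22277 probe sets on the 14 arrays used here. RMA shares information over arrays and keeps some background in dim probe sets, so folds from dim untreated levels depend on it. Precision is limited by the number of arrays.

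Groups, replicates and runs came from the labels. Probe sets with exactly 1 gene in the platform annotation (19070, of which 19058 matched a RefSeq gene ID) were kept. A further 1043 had several genes and 2164 had none listed. Values were averaged per gene and fitted with limma 3.58.1 in R 4.3.3 (lmFit and eBayes, all arrays, no block), with Benjamini-Hochberg adjustment over 11963 genes and a threshold of 0.05. The methods' variance filter at the 0.5 quantile favors genes that changed, so it was an alternative here. The fit was also run on simulated data. Their noise was independent between arrays, so that check does not cover the likeness of arrays within a run.

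The members and lists were chosen with earlier results of these data known. Named are all 7 genes, the 3 nearest profiles of each, up to 4 called genes per list with the smallest adjusted p at 24 h, every called gene of a short list, and called neighbours. MXRA8, TIMP2, DNTT and the endothelium markers lie outside this rule and were chosen with their values in view. The alternatives were the brightest probe set per gene, a filter on dim probe sets, a median shift, cyclic loess, the run or the title number as a block, eBayes with a trend and robust prior, a model of only the compared groups, and each array left out in turn. Values within day 1 and within days 2 to 4 were added after seeing the data.

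Arrays were related by run and by day. Residuals of the 13 pairs of arrays that share a run correlated with r between 0.30 and 0.54 across genes. Those of 52 pairs from different runs had r between −0.47 and 0.47. The negative values came from pairs of a day 1 array with an array of a later day. The runs of day 1 were alike, with r = 0.47 for 24 h replicate 1 and 8 h replicate 2, as within run 1.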

Additional observations from a re-analysis of the deposited data

How the results depend on the processing

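All 420 recomputed differences of the 7 genes kept their direction, and 412 moved by less than the spread between arrays. The brightest probe set of FMO5 alone gave 3.47 at 8 h, 5.88 at 24 h and 2.41 between them. Within day 1 FAM171A1 was higher by 3.57 at 8 h and 4.97 at 24 h, TMEM100 by 6.33 at 24 h and MORC1 by 1.35 at 8 h, and within days 2 to 4 MORC1 was higher by 2.25 at 8 h. The cause was not tested.

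Counts of called genes stayed within 1.5 times of those reported, apart from the neighbours at 8 h within days 2 to 4, 13 where all days gave 8. The filters on variance and on dim probe sets left fewer genes to test, so similar counts there are larger shares. With the run as a replicate block 3243 genes were called at 8 h, 5525 at 24 h and 4359 between them, where the fit without it called 2351, 4841 and 3387. For the relatives the block gave 33, 50 and 40 calls in place of 22, 46 and 29, and for the neighbours 10, 18 and 14 in place of 8, 15 and 10. The block removed 1 of the reported calls of relatives and neighbours, SYTL2 at 24 h. With arrays left out in turn the counts ranged from 1959 to 2374 genes at 8 h, 4486 to 4871 at 24 h and 3007 to 3379 between them. The relatives ranged over 18 to 24, 43 to 48 and 28 to 31, and the neighbours over 7 to 10, 15 to 17 and 10 to 12. Of the 97 calls of relatives 71 held under every alternative that measured the gene, as did 27 of the 33 of neighbours.

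MORC1 and the second probe set of FMO5 fail a filter on dim probe sets. No probe set of the 7 genes had a sample far from the others in the 24 groups examined. The 2 arrays per group of day 1 leave little power there.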
